A study of Mus musculus with 11 samples.

Results

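Early differentiating neuron genes are the genes that a progenitor of the neural tube switches on as it leaves the cell cycle and becomes a neuron. The 41 genes described here were taken by symbol from the 27179 Entrez genes of the deposited counts, and all 41 were found. They encode parts of the neuronal cytoskeleton, axon and membrane proteins, regulators of RNA, and transcription factors of newborn neurons or of neuronal subtypes. Of the 41, 36 passed the expression filter and were tested. The choice used gene names and roles, with earlier results of these data known, and no expression value entered the rule.

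The libraries were made from polyadenylated RNA of single C57BL/6 mouse embryos at embryonic day 9.5, from the brain down to just behind the otic vesicle. The groups were 4 affected females (p53-/- Bim+/-), 4 control males (p53-/- Bim+/-) and 3 control females (p53+/+ Bim+/-). Every embryo thus carried 1 mutant allele of Bim, a pro-apoptotic protein encoded by Bcl2l11, and the males and affected females also had no intact p53 allele. The labels do not say how the affected females were affected. No unaffected p53-/- female group is among the samples used here, so sex and being affected cannot be told apart against the males, nor p53 genotype and being affected against the control females. Each library is 1 embryo in the labels, which name no litter or batch. Library totals ranged from 8211942 to 11218682 counts.

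At this stage the brain vesicles consist mostly of dividing progenitors, and the first neurons are born in the hindbrain and midbrain and in the adjoining cranial ganglia. A newborn neuron expresses proneural factors briefly. It then turns on zinc finger and EBF factors that stabilise the neuronal state, RNA-binding proteins that change splicing and transcript stability, and the tubulins, stathmins and neurofilaments of the growing axon. Subtype factors such as Isl1 and Pou4f1 mark motor and sensory neurons. Neural progenitor genes were well detected, with Sox2, a factor of dividing neural progenitors, at 149 to 162, 133 to 169 and 99.3 to 142 CPM in affected females, control males and control females. Macrophage markers were low, with a summed level of at most 6.58 CPM over 7 genes in any library, and C1qa was at 0 in every library. Levels are given as CPM, counts scaled to library size after TMM normalisation. Fold changes are log2 values with standard errors (SE) from edgeR's quasi-likelihood test, called at a Benjamini-Hochberg adjusted p below 0.05 over 14542 genes.

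Many early neuron genes were lower in affected females than in either control group. Against control females 23 of the 36 tested genes were lower and none was higher, where 15.0% of all tested genes were called lower and 13.0% higher. At an unadjusted p below 0.05, 26 were lower and 1, Crmp1, was higher; DESeq2 called 25 lower and none higher, and limma voom 26 lower and 1 higher. In either direction edgeR called 28.0% of all tested genes, DESeq2 29.3% and limma voom 52.5%. Against control males 18 were lower and 1 was higher, where 20.2% of all tested genes were called in either direction, 10.7% lower and 9.51% higher. In all, 17 genes were lower against both groups, a result that held for 8.66% of all tested genes. The 2 comparisons share the affected libraries, so they are not independent. The median log2 difference of the 36 genes was -0.81 against control females and -0.61 against control males, where that of all tested genes was -0.01 and -0.02.

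Groups separated without overlap for part of these genes. Every affected female lay below every control female for 16 of the 36 genes (as 20.0% of all tested genes did) and below every control male for 18 (9.43% of all tested genes). Only Crmp1 had every affected female above every control female (20.2% of all tested genes), and no gene had them above every male (10.1% of all tested genes). For 10 genes the 4 affected females lay below all 7 control libraries, which 6.25% of all tested genes did. These 10 were Mir124a-1hg, Myt1, St18, Elavl3, Isl1, Pou4f1, Alcam, Ebf3, Tagln3 and Nefl. RNA of whole tissue was measured as a share of each library. Fewer neurons, less RNA per neuron and more RNA from other cells therefore cannot be told apart.

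Libraries of 1 group differed widely for these genes. Control female 1 had the lowest level of the 3 control females for 31 of 36 genes, and its level was a median of 0.611 times the mean of control females 2 and 3 (0.102 to 1.17 times). Control male 2 had the highest level of the 4 control males for 32 genes. The median over the genes, each centred on its mean over all libraries (log2), was -0.33, -0.49, -0.58 and -0.19 in affected females 1 to 4, and -0.01, 0.64, 0.05 and 0.03 in control males 1 to 4. It was -0.18, 0.45 and 0.57 in control females 1 to 3. Control female 1 thus lay just above the highest affected female and below all the males. Its level lay inside the affected range for 13 genes, above it for 17 and below it for 6. Without control female 1, 26 genes were lower against control females, where the calls over all tested genes rose from 28.0% to 31.1%. The spread within control males had a like size, from -0.01 to 0.64, although these 4 embryos share 1 genotype and sex in the labels.

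**Figure D1:**
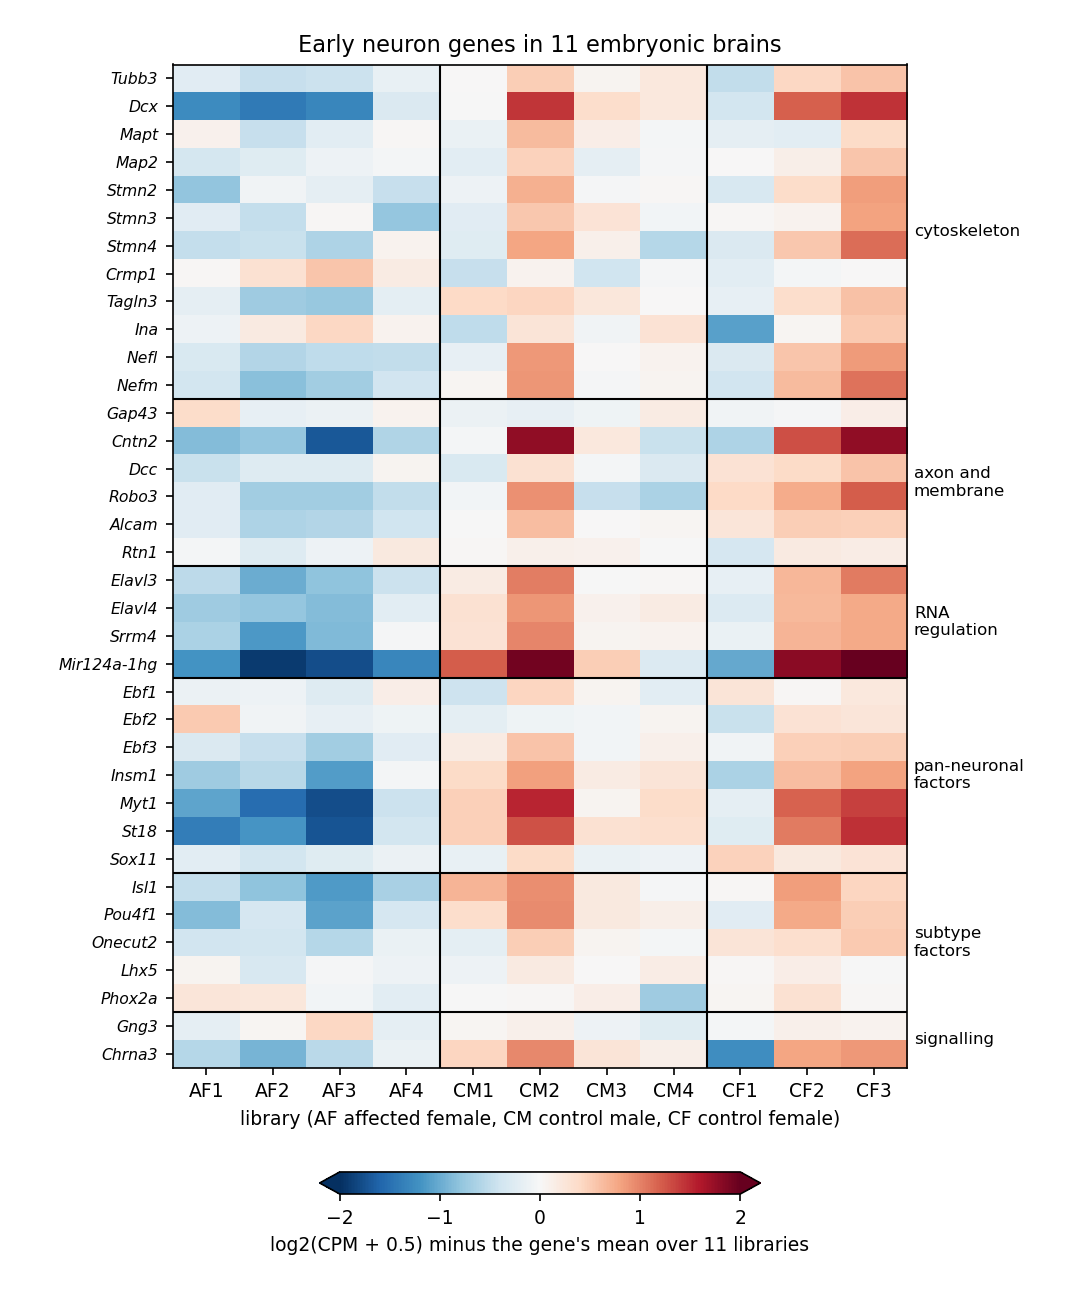
Level of each of the 36 tested genes (rows, by role) in each of 11 libraries (columns), as log2(CPM + 0.5) minus the gene's mean over the libraries, with blue lower and red higher. The 4 affected females are blue for most genes, control male 2 and control females 2 and 3 are red, and control female 1 lies closer to the affected females than the other control females do.

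The regulators of RNA were the role in which every gene was called: all 4 were lower against both control groups. Mir124a-1hg, the host transcript of the neuronal microRNA miR-124 (chromosome 14, 64588115 to 64593961 in GRCm38), stood at 1.495, 0.719, 0.839 and 1.36 CPM in affected females 1 to 4. It had 10.2, 16.9, 5.92 and 3.27 CPM in control males 1 to 4 and 1.74, 15.5 and 18.6 CPM in control females 1 to 3. No affected library reached any control library, but control female 1 came close to the highest affected female. The level was 10.9-fold lower than in control females (log2 -3.45, SE 0.67, adjusted p = 0.0041, edgeR) and 8.08-fold lower than in control males (log2 -3.01, SE 0.65, adjusted p = 0.011, edgeR).

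Elavl3 and Elavl4 encode neuronal Hu proteins, which bind and stabilise transcripts. Elavl3 (chromosome 9, 22015005 to 22052146) had 9.87, 6.99, 8.02 and 10.6 CPM in affected females. Its level was 16.2, 29.8, 14.3 and 14.7 CPM in males and 12.8, 23.1 and 30.2 CPM in control females. All affected females lay below all controls, by 2.51-fold on average against control females (log2 -1.33, SE 0.28, adjusted p = 0.00602, edgeR) and 2.11-fold against control males (log2 -1.07, SE 0.27, adjusted p = 0.0176, edgeR). Elavl4 had 15.7 to 25.1 CPM in affected females, 30.7 to 53.7 CPM in males and 23.9 to 49.6 CPM in control females. Affected female 4 thus overlapped control female 1. Its log2 changes were -1.09 (SE 0.24) and -1.02 (SE 0.22) against control females and males. Srrm4, a splicing factor for neuronal microexons, had 7.91 to 17.7 CPM in affected females and 16.6 to 36.2 CPM in the controls. Affected female 4 overlapped control female 1, and log2 changes were -1.14 (SE 0.28) and -1.04 (SE 0.26).

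Transcription factors of the general neuronal programme split into a group that was lower and a group that differed little. Of 7 such factors, 5 were lower against control females and 4 against control males. The zinc finger factors Myt1 and St18 belong to 1 family. Myt1 (chromosome 2, 181763332 to 181827775) had 2.49, 1.64, 1.30 and 4.07 CPM in affected females, 8.09, 17.3, 5.92 and 7.45 CPM in males and 4.98, 13.6 and 15.4 CPM in control females. St18 (chromosome 1, 6487231 to 6860940) had 1.20, 1.44, 0.839 and 2.91 CPM in affected females, 5.64, 10.1, 4.93 and 5.09 CPM in males and 3.24, 8.59 and 11.6 CPM in control females. For both genes affected female 4 was the highest of its group and control female 1 the lowest control, and the groups did not overlap. Myt1 was 4.80-fold lower than in control females (adjusted p = 0.00422, edgeR) and 4.04-fold lower than in control males (adjusted p = 0.0106, edgeR). St18 was 4.95-fold lower (adjusted p = 0.0036, edgeR) and 4.01-fold lower (adjusted p = 0.0104, edgeR).

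Insm1, a zinc finger factor of differentiating neurons and endocrine cells, had 4.01 to 9.01 CPM in affected females and 10.6 to 16.7 CPM in control males. Control female 1, at 5.86 CPM, fell inside the affected range, while the other control females had 14.6 and 16.7 CPM. Insm1 was about 2.04-fold and 2.06-fold lower than in control females and males (adjusted p = 0.0237 and 0.0231, edgeR). The 3 EBF factors, which promote neuronal differentiation and migration, did not move as 1 group. Ebf3 had 23.2 to 32.3 CPM in affected females, 36.4 to 56.0 CPM in males and 35.9 to 53.03 CPM in control females, 1.67-fold and 1.54-fold lower (adjusted p = 0.00665 and 0.016, edgeR). Ebf2 stood at 16.1 to 26.2, 15.7 to 18.9 and 13.1 to 22.3 CPM in affected females, control males and control females, with log2 changes of 0.01 (SE 0.19) and 0.15 (SE 0.17). Ebf1 had log2 changes of -0.26 (SE 0.20) and -0.08 (SE 0.18). Neither Ebf1 nor Ebf2 was called.

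Sox11, a SoxC factor of committed neuronal precursors, was the most abundant of the 41 genes per length, at a mean of 51.1 RPKM (CPM divided by gene length in kilobases) over all libraries. It had 368, 329, 358 and 390.5 CPM in affected females, 382, 553, 389 and 397 CPM in males and 583, 487 and 514 CPM in control females. Sox11 was lower against control females (log2 -0.55, SE 0.13, adjusted p = 0.0084, edgeR) and not called against control males (log2 -0.25, SE 0.12, adjusted p = 0.135, edgeR). It was among the 2 tested genes for which control female 1 lay above the mean of the other control females.

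Of 9 factors of neuronal subtypes, 5 were expressed highly enough to test. Isl1, a LIM homeodomain factor of motor and sensory neurons (chromosome 13, 116298270 to 116309688), had 9.27, 7.29, 5.69 and 8.14 CPM in affected females. It had 21.2, 25.3, 15.1 and 12.9 CPM in males and 13.3, 23.6 and 17.7 CPM in control females, so the affected females lay below all controls. It was 2.41-fold lower than in control females (log2 -1.27, SE 0.24, adjusted p = 0.004, edgeR) and 2.45-fold lower than in control males (log2 -1.29, SE 0.23, adjusted p = 0.00755, edgeR). Pou4f1, a POU factor of sensory neurons (chromosome 14, 104461675 to 104468118), had 5.48, 8.12, 4.66 and 8.14 CPM in affected females. Control males had 13.4, 20.5, 11.9 and 11.3 CPM and control females 8.85, 17.9 and 14.7 CPM. The groups did not overlap, and the difference was 2.11-fold against control females and 2.16-fold against control males (adjusted p = 0.0108 and 0.0118, edgeR).

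Onecut2, which acts in several early neuron types, was lower against both groups, with log2 changes of -0.75 (SE 0.15) and -0.47 (SE 0.14). It had 20.5 to 28.1 CPM in affected females and 37.0 to 44.3 CPM in control females, and the males, at 26.8 to 43.7 CPM, overlapped both. Phox2a, a factor of cranial motor and noradrenergic neurons, was at 2.13 to 3.09, 1.36 to 2.86 and 2.60 to 3.29 CPM in affected females, control males and control females, and Lhx5, a LIM factor of interneurons, at 4.62 to 6.08, 5.45 to 6.72 and 5.84 to 6.47 CPM. Neither was called, with log2 changes of -0.08 (SE 0.26) and 0.20 (SE 0.25) for Phox2a and -0.15 (SE 0.16) and -0.17 (SE 0.15) for Lhx5. The subtype factors Isl2, Onecut1, Lhx1 and Tlx3 and the filament gene Prph did not pass the filter. Onecut1 had at most 21 counts in a library and a sum of 90 over all libraries, Isl2 32, Lhx1 22, Prph 16 and Tlx3 3. Tlx3 was at 0 in 8 of the 11 libraries, where a count of 0 allows up to 3 counts, a limit that covers counting error only.

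The starts of the early neuron genes, whether or not they were lower in affected females, were read for sites of factors known in neurogenesis. RefSeq windows of GRCm38.p6, from 250 bases before to 50 bases after the start, were at hand for 28 of the 41 genes. The E-boxes CAGCTG and CAGATG, letters that neurogenic bHLH factors can bind, were searched on both strands. CAGCTG was in a window of 6 of the 28 genes (21.4%, against 18.3% of all 27025 genes with a window) and CAGATG in 4 (14.3%, against 19.2%). Both shares were near those of all genes. The full palindrome that EBF factors bind was in 1 of the 28, Robo3 (3.57%, against 1.06%). The Onecut core ATCGAT (1.02% of all genes), the left RE1 site TTCAGCACC (0.433%) and the longer right RE1 site (0.167%) were in none, where RE1 is the element bound by the repressor REST. These counts moved with the letters searched. With shorter cores, chosen after the longer ones had been counted, CCCNNGGG of the EBF palindrome was in 8 of the 28 (28.6%, against 15.4%) and GACAGCGCC of RE1 in 1, Ebf3 (3.57%, against 0.392%). Of the 17 genes lower against both groups, and leaving out Onecut2, 8 had exactly 1 window, and 4 of these windows held an E-box. They are given 5′ to 3′ on the gene's strand with the E-box in capitals. Only windows with an E-box were chosen for printing, so they do not show how common E-boxes are among these genes. Whether the E-boxes bear on the levels was not tested. The first base of the E-box lies 43, 158, 103 and 118 bases before the start of the window's transcript, in the order given. For Elavl3, Srrm4 and Pou4f1 that start lies inside the gene's annotated span, so other transcripts of these genes may begin further upstream, and for Isl1 it lies at the end of the span.
Elavl3, chr9:22051974-22052273, minus strand: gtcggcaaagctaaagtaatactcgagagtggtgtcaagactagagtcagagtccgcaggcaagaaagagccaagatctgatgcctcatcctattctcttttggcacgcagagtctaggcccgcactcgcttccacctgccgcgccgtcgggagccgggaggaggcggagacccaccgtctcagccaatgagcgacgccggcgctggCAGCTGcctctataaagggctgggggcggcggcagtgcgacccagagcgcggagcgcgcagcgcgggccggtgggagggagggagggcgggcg
Srrm4, chr5:116591768-116592067, minus strand: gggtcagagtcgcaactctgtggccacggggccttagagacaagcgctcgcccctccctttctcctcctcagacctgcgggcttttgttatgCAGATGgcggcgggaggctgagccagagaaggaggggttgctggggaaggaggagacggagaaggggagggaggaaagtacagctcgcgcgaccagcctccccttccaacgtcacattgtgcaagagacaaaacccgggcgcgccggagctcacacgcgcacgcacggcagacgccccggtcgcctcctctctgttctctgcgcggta
Isl1, chr13:116309639-116309938, minus strand: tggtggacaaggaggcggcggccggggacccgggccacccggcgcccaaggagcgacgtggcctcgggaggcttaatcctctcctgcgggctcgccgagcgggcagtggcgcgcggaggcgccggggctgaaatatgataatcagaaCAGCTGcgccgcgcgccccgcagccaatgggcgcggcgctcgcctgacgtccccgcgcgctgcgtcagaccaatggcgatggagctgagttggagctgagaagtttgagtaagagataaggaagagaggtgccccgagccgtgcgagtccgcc
Pou4f1, chr14:104467950-104468249, minus strand: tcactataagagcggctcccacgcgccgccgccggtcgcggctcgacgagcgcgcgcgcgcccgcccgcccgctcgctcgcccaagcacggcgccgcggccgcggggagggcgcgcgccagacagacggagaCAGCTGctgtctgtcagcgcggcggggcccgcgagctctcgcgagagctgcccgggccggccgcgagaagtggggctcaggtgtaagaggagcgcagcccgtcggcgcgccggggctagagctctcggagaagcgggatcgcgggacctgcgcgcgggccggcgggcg

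The cytoskeleton genes were lower in part. Of 12 tested, 7 were lower against control females and 4 against control males, and 1 was higher against control males. Dcx encodes doublecortin, a microtubule protein of migrating neurons (chromosome X, 143855842 to 143933396). It had 6.58, 5.86, 6.34 and 13.4 CPM in affected females, 16.3, 45.0, 21.01 and 19.0 CPM in males and 12.6, 38.3 and 45.7 CPM in control females. Affected female 4 lay just above control female 1 and below all males. Dcx was 4.03-fold lower than in control females (log2 -2.01, SE 0.41, adjusted p = 0.0051, edgeR) and 3.13-fold lower than in control males (log2 -1.65, SE 0.40, adjusted p = 0.0152, edgeR).

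Tubb3, the neuronal beta-tubulin and a usual marker of newborn neurons, differed less. It had 27.7, 23.6, 24.2 and 29.4 CPM in affected females, 33.0, 46.0, 33.9 and 38.1 CPM in males and 23.1, 43.7 and 48.8 CPM in control females. Control female 1 was the lowest of all 11 libraries. Tubb3 was called against control females (log2 -0.56, SE 0.19, adjusted p = 0.0415, edgeR) and missed the threshold against control males (log2 -0.52, SE 0.18, adjusted p = 0.0507, edgeR), although the affected females lay below all the males.

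The neurofilament genes Nefl and Nefm lie side by side on chromosome 14 and build the axonal filament. Nefm had 26.9, 19.4, 21.3 and 26.8 CPM in affected females, 35.8, 64.7, 34.6 and 36.4 CPM in males and 26.8, 54.7 and 75.2 CPM in control females. It was 2.22-fold and 1.81-fold lower (adjusted p = 0.00959 and 0.0334, edgeR). Nefl was 1.96-fold and 1.69-fold lower (adjusted p = 0.0157 and 0.0431, edgeR), with 8.12 to 9.97 CPM in affected females and 10.1 to 23.1 CPM in controls. Ina, the related filament internexin, was not called, with log2 changes of 0.17 (SE 0.28) and 0.13 (SE 0.26), and its lowest library was control female 1 at 5.36 CPM. Tagln3, a neuronal member of the transgelin family, had 9.13 to 13.9 CPM in affected females and 14.1 to 24.01 CPM in the 7 controls. It was 1.70-fold and 1.66-fold lower (adjusted p = 0.0122 and 0.0165, edgeR).

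The stathmins bind free tubulin and keep growing microtubules short. Stmn2 had 15.95 to 26.5 CPM in affected females and 22.2 to 49.9 CPM in control females (log2 -0.74, SE 0.25, adjusted p = 0.0379, edgeR). Stmn4 had 1.49 to 2.71 CPM in affected females and 1.99 to 6.12 CPM in control females (log2 -1.09, SE 0.39, adjusted p = 0.0487, edgeR). Neither was called against control males, with log2 changes of -0.55 (SE 0.23) and -0.53 (SE 0.38). Stmn3 was not called in either comparison (log2 -0.85, SE 0.32, and -0.60, SE 0.31). The microtubule proteins Map2 and Mapt were also not called. Map2 had 50.2 to 62.0 CPM in affected females, below the 64.6 to 94.0 CPM of control females (log2 -0.43, SE 0.16, adjusted p = 0.0538, edgeR), and Mapt had 4.01 to 6.08 CPM against 4.88 to 7.602 CPM.

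Crmp1, a mediator of semaphorin signals that shapes the axonal cytoskeleton, went the other way. It had 62.7, 76.4, 90.8 and 69.3 CPM in affected females, 44.6, 64.9, 46.7 and 60.3 CPM in males and 53.2, 60.0 and 61.6 CPM in control females. It was higher against control males (log2 0.47, SE 0.13, adjusted p = 0.0246, edgeR). Against control females all affected females lay above all controls, but the difference was not called (log2 0.36, SE 0.14, adjusted p = 0.0686, edgeR). The span of Crmp1 overlaps that of Evc. Spans also overlap another counted gene for Mir124a-1hg, Srrm4, Nefm, Ebf3, Ebf2, Ina, Phox2a, Gng3 and Chrna3. No label or note states whether counting used strand, so reads of such pairs may not be told apart.

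Of 6 genes of the axon and membrane, 4 were lower against control females and 2 against control males. Cntn2, a surface adhesion molecule of the first axons, had 1.69, 1.85, 0.746 and 2.13 CPM in affected females. It had 3.39, 13.2, 4.14 and 2.45 CPM in males and 2.12, 9.33 and 13.2 CPM in control females, so that control female 1 overlapped the affected females. It was 5.21-fold and 3.57-fold lower (adjusted p = 0.0122 and 0.0404, edgeR). Without control male 2 its log2 change against control males went from -1.84 to -1.05 and was not called. Alcam, a cell adhesion molecule of early axons, had 29.9, 22.7, 23.1 and 26.5 CPM in affected females, 34.8, 54.0, 35.3 and 36.1 CPM in males and 41.5, 49.6 and 48.9 CPM in control females. All affected females lay below all controls, 1.83-fold and 1.56-fold lower (adjusted p = 0.00299 and 0.0117, edgeR).

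Dcc and Robo3, receptors that guide commissural axons, were called against control females alone. Dcc had 24.3, 27.9, 27.8 and 34.6 CPM in affected females, 26.9, 41.6, 32.4 and 27.4 CPM in males and 41.1, 43.7 and 49.6 CPM in control females. It was 1.56-fold lower than in control females (adjusted p = 0.00825, edgeR), and the males overlapped both female groups (log2 -0.16, SE 0.14, adjusted p = 0.428, edgeR). Robo3 had 1.03 to 1.60 CPM in affected females, 1.09 to 4.14 CPM in males and 2.74 to 5.19 CPM in control females. It was 3.16-fold lower than in control females (adjusted p = 0.0099, edgeR) and stood at -0.75 (SE 0.40, adjusted p = 0.183, edgeR) against control males. Between control males and control females, Dcc, Robo3 and Sox11 had the smallest p of the 36 genes, with log2 changes of -0.49 (SE 0.15), -0.91 (SE 0.37) and -0.30 (SE 0.13) and adjusted p of 0.639 to 0.773 (edgeR).

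Gap43, a phosphoprotein of growth cones, was the second most abundant gene per length (32.5 RPKM) and did not follow the others. It had 54.8, 37.9, 39.1 and 44.7 CPM in affected females, 38.9, 37.7, 39.6 and 47.3 CPM in males and 40.3, 41.7 and 46.6 CPM in control females. The groups overlapped, although affected female 1 lay above every control, and log2 changes were 0.04 (SE 0.13) and 0.11 (SE 0.12). Rtn1, an endoplasmic reticulum protein of neurons, had 19.7 to 27.1, 23.4 to 25.4 and 18.6 to 26.6 CPM in affected females, control males and control females. Its log2 changes were -0.06 (SE 0.14) and -0.09 (SE 0.13). In Gng3, a G protein gamma subunit, they were 0.00 (SE 0.17) and 0.10 (SE 0.16). Chrna3, a nicotinic receptor subunit, was lower against control males (log2 -1.08, SE 0.36, adjusted p = 0.0474, edgeR). It had 2.47 to 4.65 CPM in affected females and 5.63 to 10.4 CPM in control males. Against control females it missed the threshold (log2 -1.04, SE 0.39, adjusted p = 0.0577, edgeR), where control female 1, at 1.87 CPM, was the lowest of all libraries and the others had 9.22 and 9.73 CPM.

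**Figure D2:**
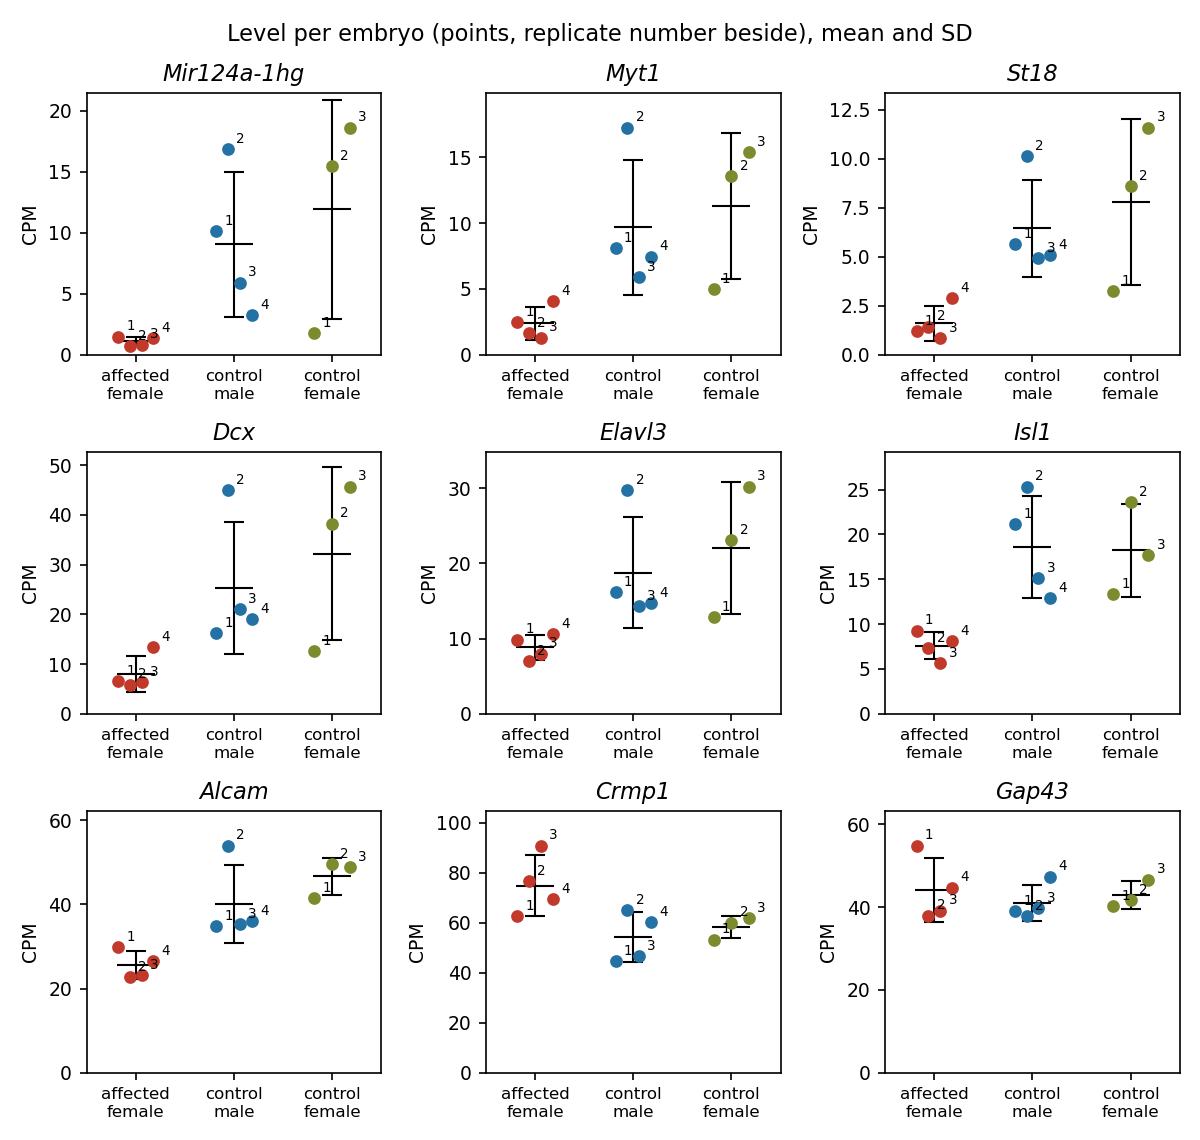
CPM of 9 genes in each embryo (points, with the replicate number), by group, with the mean and SD (bars). Mir124a-1hg, Myt1, St18, Elavl3, Isl1 and Alcam are lower in all 4 affected females than in all 7 controls, and Dcx of affected female 4 overlaps control female 1. Crmp1 is higher in all affected females than in all control females but overlaps control males. Gap43 overlaps between the groups, with affected female 1 above every control.

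**Figure D3:**
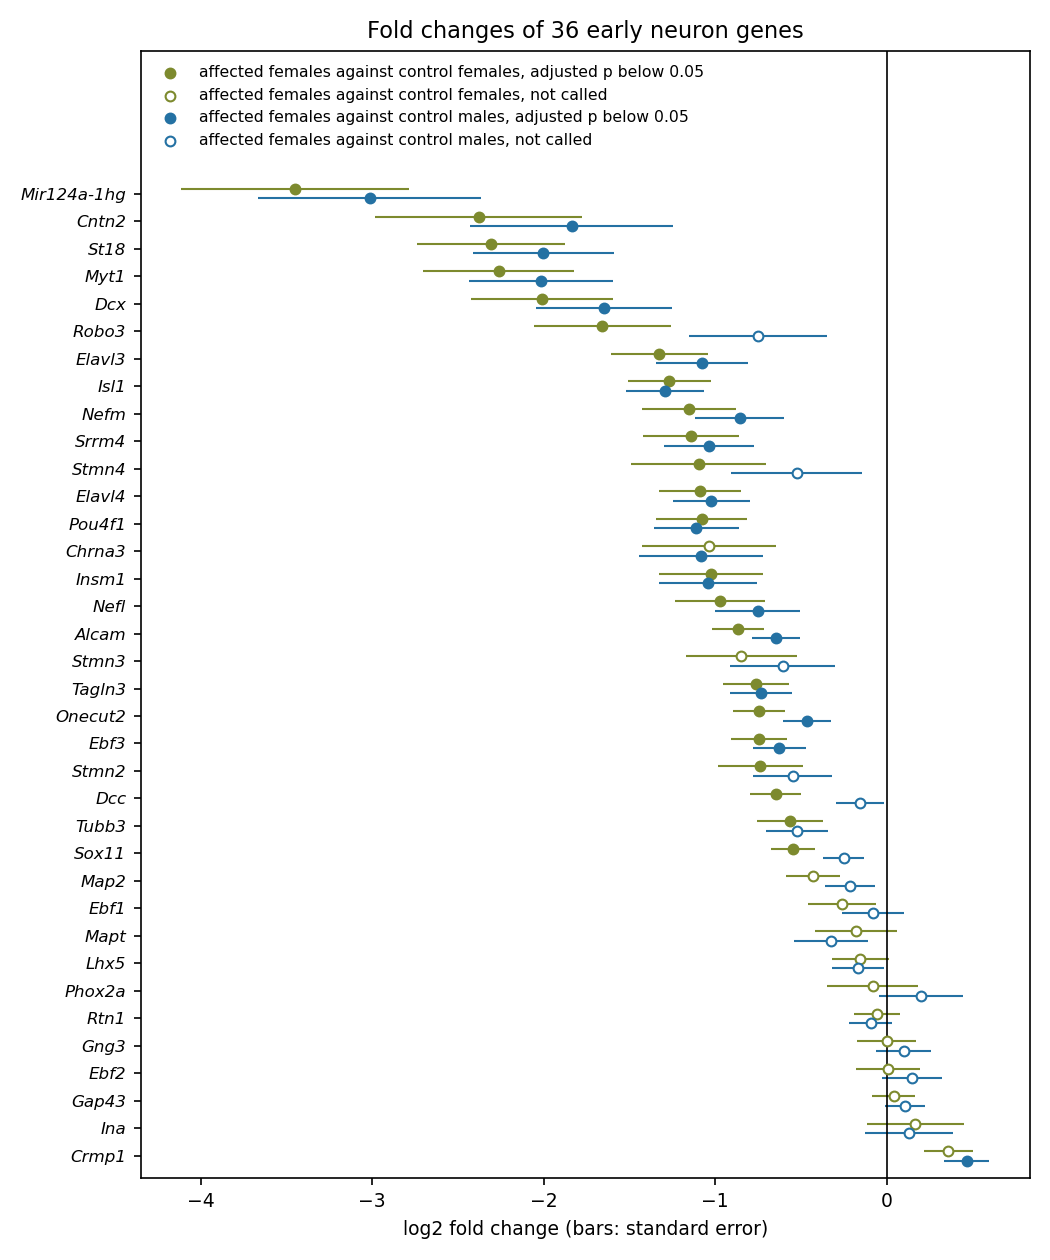
Log2 fold change (points) and SE (bars) of the 36 tested genes in affected females against control females (green) and control males (blue), with filled points where the adjusted p was below 0.05. Genes run from Mir124a-1hg, at -3.45 and -3.01, to Crmp1, at 0.36 and 0.47.

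Control males and control females, differ in sex and in p53 genotype. None of the 36 genes was called between them by edgeR, where 0.144% of all tested genes were called, 0.0963% lower and 0.0481% higher. No gene had groups that did not overlap, where 2.54% of all tested genes were lower and 2.99% higher without overlap. At an unadjusted p below 0.05 there were 3 genes, and DESeq2 also called none. Limma voom with sample weights called 19 lower in control males, where it called 10.8% of all tested genes in either direction. The median log2 difference was -0.18, and it was -0.33 without control female 1, -0.37 without control male 2 and 0.02 without control female 3.

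Leaving out single libraries changed the counts. Against control females 13 of 36 genes (36.1%) were called without control female 3, where the calls over all genes fell from 28.0% to 11.3%. Of the 23, 12 kept their call under all 19 alternatives: Alcam, Dcc, Dcx, Ebf3, Elavl3, Elavl4, Isl1, Mir124a-1hg, Myt1, Onecut2, Sox11 and St18. Against control males 3 genes (Isl1, Myt1 and St18) were called without affected female 3, where 2.49% of all genes were called. The count was 11 without control male 1 (4.55% of all genes) and 10 without control male 2 (7.82% of all genes). These 3 were also the genes called under all 19 alternatives.

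Other early neuron genes were counted from a list of 49, of which 48 were tested. Against control females 11 of the 48 were lower and 2 higher, where 15.0% of all tested genes were called lower and 13.0% higher. Against control males 12 were lower and 2 higher, where these shares were 10.7% and 9.51%. Most of the 48 were thus not called in either comparison, and their median log2 differences were -0.36 and -0.29. None was called between control males and control females. The genes named next, from Nhlh1 to Robo1, had the smallest p of the list against control females, so they do not stand for all of it. The bHLH factors of newborn neurons Nhlh1 and Nhlh2 were lower against control females (log2 -2.16, SE 0.35, and -2.41, SE 0.47). Nhlh1 had 1.68 to 3.20 CPM in affected females, 8.27 to 16.02 CPM in males and 4.86 to 14.2 CPM in control females, with no overlap. Scrt2, a repressor of the Snail family in newborn neurons, had a log2 change of -2.43 (SE 0.49) against control females. It was not called against control males (adjusted p = 0.0531, edgeR). Tbx20, a factor of hindbrain motor neurons, had a log2 change of -1.32 (SE 0.28) against control females. For Syt4, a vesicle protein, it was -2.48 (SE 0.60). Syt4 had 0.186 to 0.299 CPM in affected females, 0.395 to 1.86 CPM in males and 0.623 to 2.41 CPM in control females. Scrt2 had 0.205 to 0.678, 0.727 to 2.27 and 1.12 to 3.52 CPM in these groups. Syt4 and Scrt2 passed the filter only through control libraries, so their calls as lower add no support. Robo1, a Slit receptor, was higher at 0.37 (SE 0.09, adjusted p = 0.011, edgeR). The other higher gene, named after its values were seen, was Nefh, the heavy neurofilament subunit, which went opposite to Nefl and Nefm. It had 2.05 to 4.57 CPM in affected females, 0.517 to 1.36 CPM in males and 0.848 to 1.74 CPM in control females. Its log2 changes were 1.19 (SE 0.38, adjusted p = 0.0329, edgeR) against control females and 1.35 (SE 0.35, adjusted p = 0.0199, edgeR) against control males.

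Markers of other cells were counted in the same fit. Of all tested genes 13.0% were called higher and 15.0% lower against control females, and 9.51% higher and 10.7% lower against control males. Surface ectoderm markers were higher in affected females for 9 of 11 genes against control females and 8 of 11 against control males, and none was lower. Their summed level was 303 to 342 CPM in affected females, 177 to 243 CPM in males and 158 to 279 CPM in control females. Neural crest and glia markers were higher for 7 of 10 and lower for 1 against control females, and higher for 2 and lower for 1 against control males, with sums of 414 to 481, 349 to 396 and 322 to 340 CPM. Of 16 progenitor markers 4 were higher and 4 lower against control females, and 1 was higher and 2 lower against control males, with sums of 3423 to 3888 CPM in affected females, 2839 to 3669 CPM in males and 2967 to 3185 CPM in control females. Lin28a was higher against both groups, and Sox2, Sox3 and Sox21 against control females only. Fabp7 and Prom1 were lower against both groups, and Vim and Notch1 against control females only. Fabp7 had the largest change of the list, with log2 -1.68 (SE 0.28) and -1.32 (SE 0.26) against control females and males. The largest parts of the progenitor sums were Lin28a and Hmga2, which was not called. Lin28a had a mean of 1018, 604 and 529 CPM in affected females, control males and control females, and Hmga2 930, 752 and 732 CPM. The summed level of the 41 early neuron genes was 836 to 985, 1032 to 1545 and 1176 to 1522 CPM in these groups. Sox11 alone had 329 to 390, 382 to 553 and 487 to 583 CPM of it. Of 9 tested placode and sensory ganglion markers 1 was lower against control females and 3 against control males. None of 10 primitive erythroid markers was called, and control female 1 had the lowest erythroid list median (-1.86). Head mesenchyme markers were higher for 2 of 11 against control females and 1 of 11 against control males, and endothelial markers lower for 1 of 10 and 0 of 10, shares near or below those of all tested genes. Macrophage markers summed to 0.0997 to 0.775 CPM in affected females, 0.395 to 4.86 CPM in males and 1.25 to 6.58 CPM in control females, highest in control male 2 and control female 3 of their groups. Csf1r, the receptor of macrophage growth factors, was the only one of the 7 tested. It had 0 to 0.387 CPM in affected females, 0.364 to 1.86 CPM in males and 0.374 to 2.41 CPM in control females. It was lower against control females (log2 -2.65, SE 0.75, adjusted p = 0.0191, edgeR) and not called against control males (log2 -1.97, SE 0.76, adjusted p = 0.076, edgeR). Csf1r passed the filter only through control libraries, so its call as lower adds no support. Genes of mitochondrial DNA took 1.31% to 1.69% of counts in affected females, 2.06% to 3.82% in control males and 2.48% to 4.99% in control females, with the lowest control shares in control male 4 and control female 1. The part of these differences in the results was not tested.

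**Figure D4:**
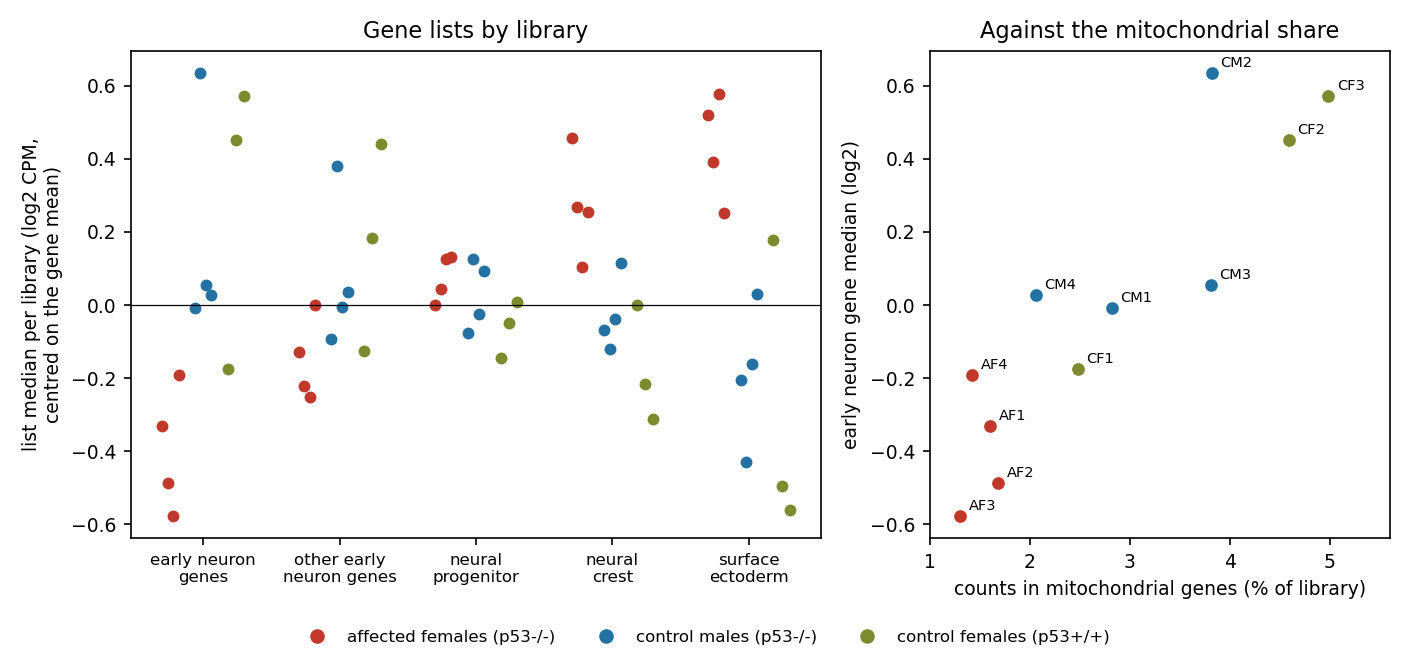
Left, median of 5 gene lists in each library (log2 CPM centred on each gene's mean), by group; right, the median of the early neuron genes against the percent of counts in mitochondrial genes. Affected females lie lowest for the early neuron genes, from -0.58 to -0.19 with control female 1 at -0.18, and highest for surface ectoderm markers, and they have the lowest mitochondrial shares, 1.31% to 1.69%.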

How the data were processed

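Polyadenylated RNA was measured in 11 libraries. The authors deposited raw whole-number counts per Entrez gene with gene lengths. The submitters' processing notes name featureCounts and mm10. The aligner, tool versions, strand setting and annotation release were found in no label or note. The authors' combined table repeats these counts and was left aside.

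Groups and replicate numbers came from the sample titles. Symbols and positions came from a RefSeq table of GRCm38.p6, with the coordinates of mm10, and for 17 genes from GENCODE M21. Members, lists and alternatives were chosen with earlier results of these data known. Promoter sequences came from RefSeq (GRCm38.p6).

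Genes were kept by filterByExpr (14542), scaled by TMM and tested with edgeR 4.0.16 in R 4.3.3 in 1 quasi-likelihood fit of all libraries with group as the only factor, with Benjamini-Hochberg adjustment and a threshold of 0.05. SE is the log2 fold change divided by the square root of F. RPKM used the deposited lengths. List medians per library used log2 CPM with a prior count of 2. Every member was counted. Values in each library are given for members called in a comparison of affected females that carry the results, and for abundant members not called. P-values set the difference between groups against the spread between embryos within groups. The labels name no litter, so differences between litters could not be taken into account. In simulated counts for affected against control females the share of known changes found among 14406 genes was 44.8% at 1.5-fold, 74.6% at 2-fold, 93.9% at 4-fold. Only 66 or 67 genes were changed at each fold, far fewer than the 4073 called in the data. The adjustment of p depends on that number, so these shares need not hold for the reported calls. Alternatives were RLE scaling, other filters, DESeq2 1.42.0, limma 3.58.1 (voom with sample weights), a replicate block, only the 2 groups compared, and libraries left out.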

Additional observations from a re-analysis of the deposited data

Results flagged for a closer look

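In groups of 4 embryos, 1 library was set apart from the other 3 for 10 of the 72 combinations of gene and group examined. For a single combination chance gives about 1 in 20. The 72 come from the same embryos and their genes vary together, so the count of 10 cannot be set against that rate. Control male 2 was the library in 8 of the 10. It had 45.0 CPM of Dcx against 16.3 to 21.01 CPM in the other control males, 46.0 CPM of Stmn2 against 25.9 to 28.3, 64.7 CPM of Nefm against 34.6 to 36.4, and 13.2 CPM of Cntn2 against 2.45 to 4.14. It had 54.0 CPM of Alcam against 34.8 to 36.1, 29.8 CPM of Elavl3 against 14.3 to 16.2, 10.1 CPM of St18 against 4.93 to 5.64, and 553 CPM of Sox11 against 382 to 397. Affected female 4 had 13.4 CPM of Dcx against 5.86 to 6.58 CPM in the other affected females. Affected female 1 had 26.2 CPM of Ebf2 against 16.1 to 17.3 CPM. The 3 control females were too few for this comparison.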

How the results depend on the processing

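Against control females 23 genes were called, and the count ranged from 13 (without control female 3) to 27 when 1 library was left out. Against control males 19 were called, and the range was 3 (without affected female 3) to 21. The counts were 11 without control male 1 and 10 without control male 2. Fewer libraries were fitted and fewer of all genes were called in these fits, 361 without affected female 3 against 2940. Between control males and control females the count was 0, and 0 with each library left out, but 19 with limma voom and sample weights, where the cause was not tested. The median of the early neuron genes stayed within the spread of library medians (SD 0.308) under every alternative. With a replicate block the counts were 21, 21 and 0; same-numbered embryos shared only a number, with deviations correlated at -0.14 to 0.18. Stmn4 and Tubb3 were not called against control females with the block. Of 437 single gene values against control females 405 kept their call, and of 361 against control males 306; none changed direction. For all tested genes, the 4073 calls against control females became 1663 to 2605 without control female 3, control female 2, affected female 3 or affected female 4, and 7639 with limma voom. The 2940 against control males became 361 to 1470 without affected female 3 or 4 or control male 1, 2 or 3, 5140 without control male 4, 6014 without control female 1 and control male 4, and 6397 with limma voom. The 21 between the control groups became 43 with DESeq2, 35 without control male 2 and 1569 with limma voom. With no filter the 5 low genes were tested too, and none was called in any of the 3 comparisons.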
